A study of Homo sapiens with 8 samples.

Results

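WNT1, WNT3, WNT3A, WNT4, WNT5A, WNT5B, WNT7B, WNT8A, WNT8B and WNT11 are 10 of the 19 human WNT ligand genes, and all 19 were in the table of 35940 gene symbols. The 10 were taken by gene name. Transcript levels were read in ESI017 cells, an established human embryonic stem cell line labelled wild type, which were carried through a posterior neural differentiation in N2B27, a serum-free neural medium. All libraries share SB (10 μM) and LDN (100 nM), and human recombinant WNT3A protein (300 ng/mL) was added at 34 h. Libraries were taken at 34, 42, 50 and 72 h, 2 at each time, so that the 34 h libraries share the hour at which WNT3A was added and the others follow 8, 16 and 38 h of it; whether the 34 h cells were taken just before it is not given in the sources used here. In the labels the replicate number is also the batch, and an independent biological replicate is stated. No arm without WNT3A was used here, so time and WNT3A cannot be told apart in any comparison. Every group is 1 cell line, and the added ligand is a protein, which adds no WNT3A transcript.

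WNT ligands are secreted glycoproteins that receive a lipid in the endoplasmic reticulum and need a carrier protein to leave the cell. Many of them bind a Frizzled receptor together with LRP5 or LRP6 and stabilise beta-catenin, which acts on genes with TCF and LEF factors; WNT1, WNT3, WNT3A, WNT8A and WNT8B are usually placed in this class. WNT5A, WNT5B and WNT11, and in many tissues WNT4, are better known for signalling through ROR and RYK receptors to cell polarity and movement. In the vertebrate embryo WNT activity is high at the posterior end and is known to give the early neural plate posterior character.

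Values are TPM, which are scaled by transcript length and can be set side by side between genes. The 10 genes together had 37.1 and 36.1 TPM (34 h), 83.1 and 74.4 TPM (42 h), 79.4 and 78.1 TPM (50 h) and 77.4 and 80.8 TPM (72 h). The pool was thus larger in each later library than in both 34 h libraries, and the later libraries lay close together. Its make-up turned over within that level. WNT4 was the leading gene at 34 h with 46.0% and 56.5% of the pool in the replicates, WNT5B led at 42 h with 63.7% and 56.7% and at 50 h with 62.4% and 56.2%, and WNT8A led at 72 h with 63.8% and 56.7%. WNT4, WNT5A, WNT5B and WNT11 together made up 84.0% and 88.6% of the pool (34 h), then 93.0% and 94.0% (42 h), and 83.0% and 87.5% (50 h). At 72 h they made up 29.6% and 36.8%. The rise of this share at 42 h holds within the 10 genes only, which leave out WNT10B. The same genes had 31.1 and 32.0 TPM at 34 h, where all 19 WNT ligand genes summed to 43.6 and 41.9 TPM. At 42 h they had 77.3 and 69.9 TPM, where the 19 summed to 122 and 111 TPM, a smaller part than at 34 h. In bulk RNA, fewer cells that express a gene and less RNA per cell cannot be told apart, which holds for every level here.

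**Figure D1:**
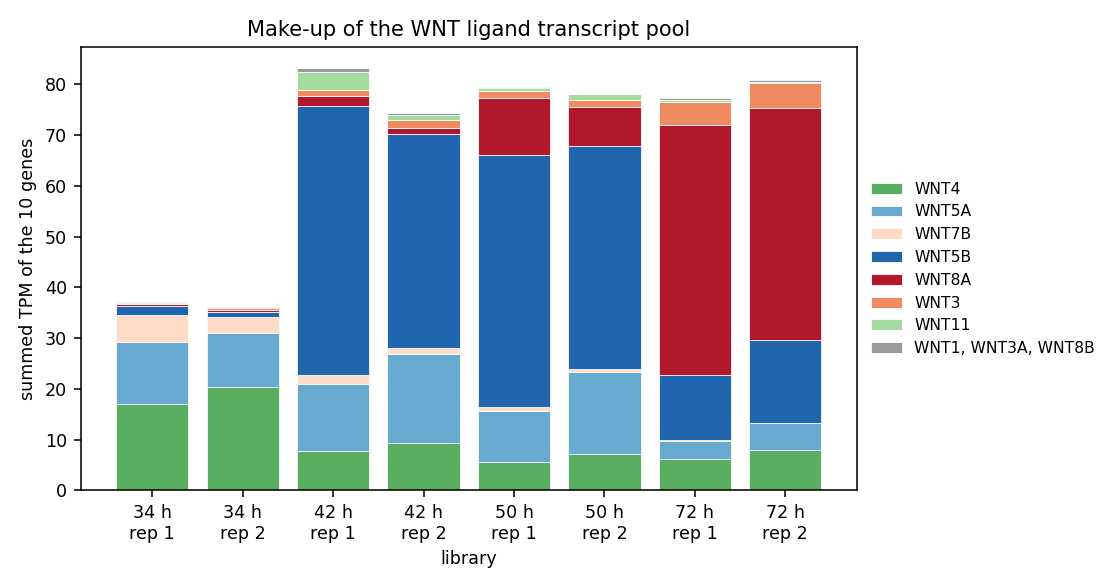
Stacked bars give the TPM of the 10 WNT ligand genes in each of the 8 libraries, with time and replicate below each bar. The summed height is 37.1 and 36.1 TPM at 34 h and between 74.4 and 83.1 TPM in the later libraries, while the leading gene changes from WNT4 to WNT5B to WNT8A.

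The order of levels at 34 h was WNT4, WNT5A, WNT7B, WNT5B and WNT8A, each with both libraries above both of the next. At 42 h it was WNT5B, WNT5A and WNT4, followed by WNT11, WNT8A, WNT7B and WNT3, and the libraries of WNT11 and WNT8A, WNT8A and WNT7B, and WNT7B and WNT3 overlapped. At 50 h the order was WNT5B, WNT5A, WNT8A and WNT4, and the libraries of WNT5A and WNT8A overlapped. WNT8A, WNT5B and WNT4 led at 72 h without overlap, and WNT3 and WNT5A, which came next, overlapped. WNT1, WNT3A and WNT8B stayed below 0.5 TPM in every library.

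Of the 10 genes, 7 reached the level needed for a test, which was 1 TPM or more in 2 or more of the 8 libraries; WNT1, WNT3A and WNT8B did not. WNT3, WNT8A and WNT11 passed through libraries after 34 h and WNT7B through the 34 h and 42 h libraries. WNT5B, with 1.69 and 0.918 TPM at 34 h, also needed a later library to pass. The filter thus favours a change in these genes. At 42 h against 34 h, 2 of the 7 tested WNT ligand genes were called changed, WNT5B raised and WNT4 lowered, where 2.58% of all tested genes were called, 1.78% raised and 0.792% lowered. At 50 h against 34 h 5 were called, 3 raised (WNT3, WNT5B, WNT8A) and 2 lowered (WNT4, WNT7B), where 6.26% of all tested genes were called, 3.52% raised and 2.74% lowered. At 72 h against 34 h 6 were called, 3 raised (WNT3, WNT5B, WNT8A) and 3 lowered (WNT4, WNT5A, WNT7B), where 24% of all tested genes were called, 12.7% raised and 11.3% lowered. These comparisons share the 34 h libraries. Between 42 h and 50 h WNT8A alone was called, where 0.0939% of all tested genes were called, 0.0604% (9 genes) raised and 0.0335% (5 genes) lowered; after TMM rescaling 9 were raised and 9 lowered, and after quantile normalization 9 and 11. Between 50 h and 72 h 4 were called, 2 raised (WNT3, WNT8A) and 2 lowered (WNT5A, WNT5B), where 7.33% of all tested genes were called, 2.92% raised and 4.41% lowered. A call is an adjusted p under 0.05 by limma over all 14908 tested genes, on a log2(TPM + 1) scale, where the change of a low gene comes out too small.

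**Figure D2:**
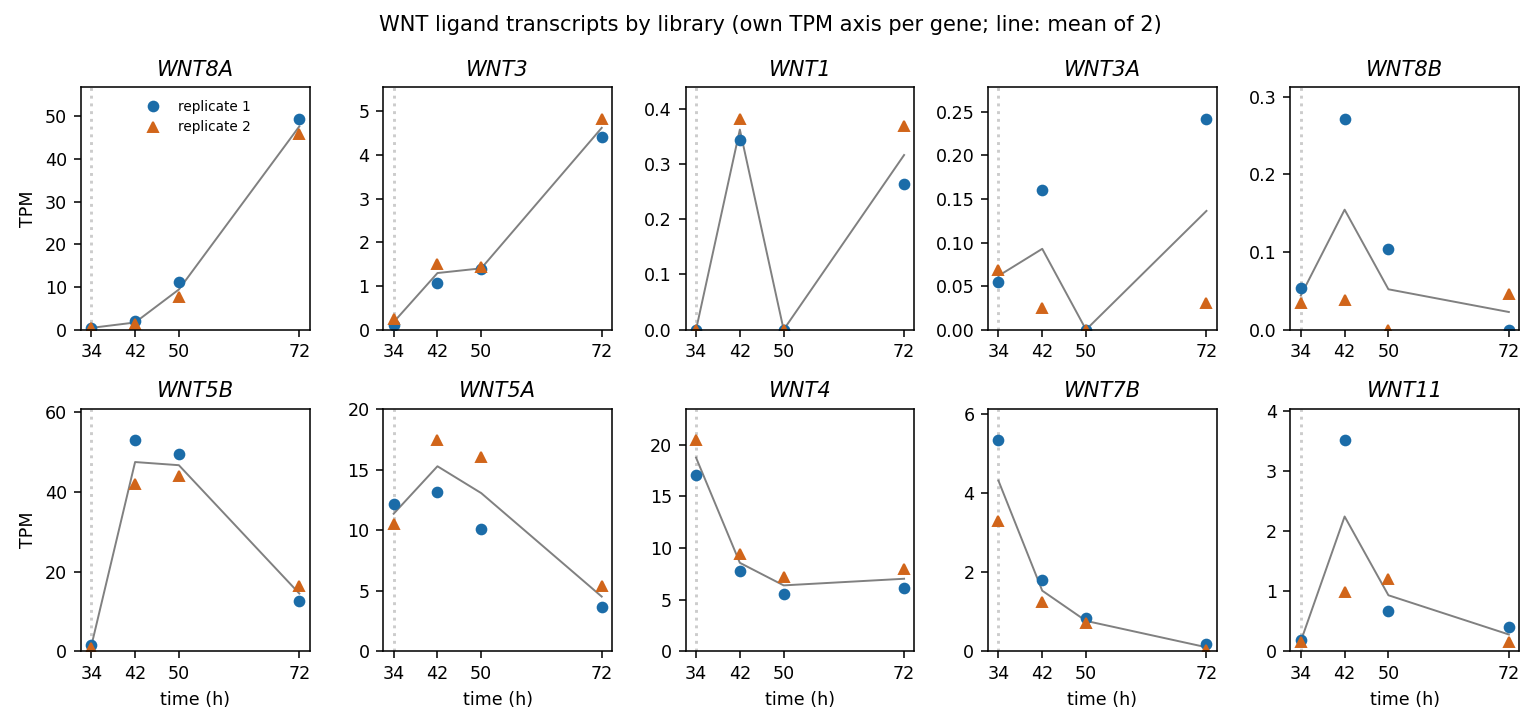
TPM of each of the 10 WNT ligand genes against hours of differentiation, with replicates 1 (circles) and 2 (triangles), the mean of both as a line, and a dotted line at 34 h, when WNT3A protein was added. Each panel has its own axis from 0: WNT5B is highest at 42 and 50 h, WNT8A and WNT3 at 72 h, WNT4 and WNT7B at 34 h, and WNT1, WNT3A and WNT8B stay under 0.5 TPM.

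**Figure D3:**
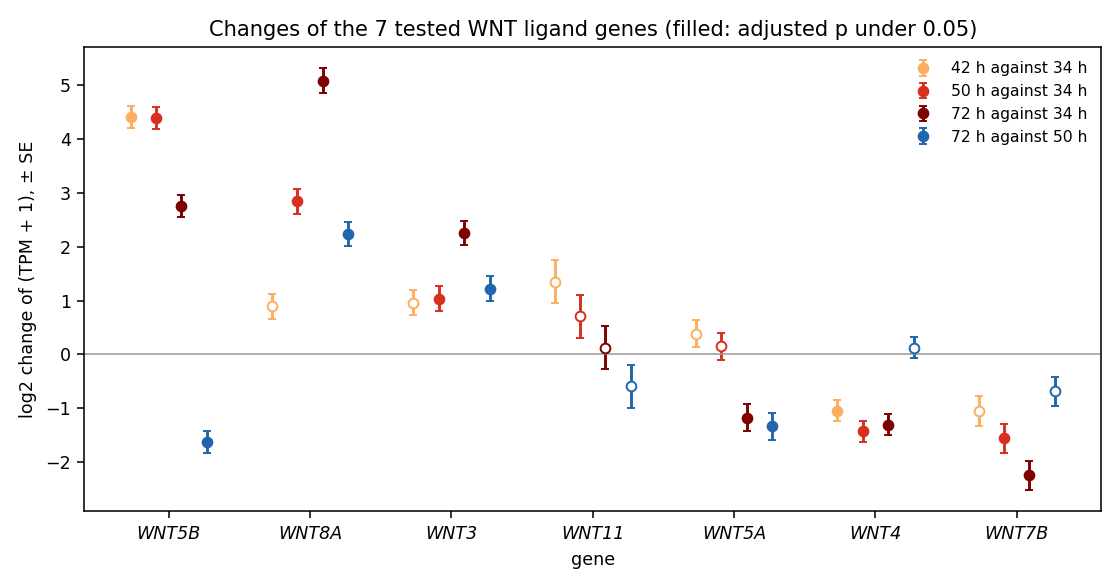
Differences on the log2(TPM + 1) scale with their SE by limma for the 7 tested WNT ligand genes in 4 comparisons; filled points had an adjusted p under 0.05. WNT5B rises by 4.41 at 42 h and falls by 1.63 from 50 h to 72 h, while WNT8A rises to 5.09 above 34 h at 72 h.

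WNT5B was the ligand gene that rose most in the first 8 h of WNT3A. It lies on chromosome 12 at 1529891 to 1647243, plus strand (GRCh38). WNT5B had 1.69 and 0.918 TPM (34 h), 52.9 and 42.1 TPM (42 h), 49.6 and 43.9 TPM (50 h) and 12.7 and 16.3 TPM (72 h). Both 34 h libraries were low, the 42 h and 50 h libraries overlapped each other at the top, and the 72 h libraries lay between without overlap. WNT5B rose by 4.41 ± 0.21 (SE) on the log2 scale at 42 h (limma adjusted p 6.28e-05), and by 4.33 and 4.49 within replicates 1 and 2. Between 42 h and 50 h the difference was -0.02 ± 0.21 (limma adjusted p 0.994). From 50 h to 72 h WNT5B fell by 1.63 ± 0.21 (limma adjusted p 0.00314), and it was still 2.76 ± 0.21 above 34 h (limma adjusted p 6.52e-05). Each of its 4 calls was kept under the alternatives tried.

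In GENCODE 29 the body of WNT5B holds FBXL14, a gene on the opposite strand that encodes an F-box protein of ubiquitin ligases, at 1565993 to 1594165 on chromosome 12. The RefSeq promoter windows of WNT5B, searched below, begin past the end of FBXL14, at 1616806 and 1628981. FBXL14 was picked out after its values were seen. It had 5.49 and 4.68 TPM (34 h), 25.6 and 22.1 TPM (42 h), 38.1 and 23.2 TPM (50 h) and 35.4 and 36.4 TPM (72 h). FBXL14 thus rose with WNT5B at 42 h, by 2.03 ± 0.22 (limma adjusted p 0.00198), and did not follow its later fall, with a difference of 0.26 ± 0.22 from 50 h to 72 h (limma adjusted p 0.522). The annotated exons of the genes, 4305 and 2287 bases over all transcripts of GENCODE 29, share 0 bases. Whether the libraries keep strand is not given in the sources used here, and a part of reads from 1 gene in the value of the other was not tested.

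WNT5A, the close paralog of WNT5B and the best studied ligand of ROR2, took another course. It lies on chromosome 3 at 55465715 to 55490539, minus strand. WNT5A had 12.2 and 10.5 TPM (34 h), 13.1 and 17.4 TPM (42 h), 10.1 and 16.0 TPM (50 h) and 3.68 and 5.35 TPM (72 h). The 50 h libraries overlapped those of 34 h and of 42 h, the 42 h libraries lay above those of 34 h, and both 72 h libraries lay below all the others. Against 34 h the differences were 0.39 ± 0.25 at 42 h and 0.16 ± 0.25 at 50 h (limma adjusted p 0.598 and 0.785), the latter with opposite signs in the replicates, -0.25 and 0.56. WNT5A fell by 1.18 ± 0.25 at 72 h against 34 h (limma adjusted p 0.0119), a call that was lost without replicate 1 at 34 h (0.0684) or replicate 1 at 72 h (0.0784), where the alternatives ranged from 0.00686 to 0.0784. From 50 h to 72 h WNT5A fell by 1.33 ± 0.25 (limma adjusted p 0.0173), a call that ended without replicate 2 at 50 h (0.0888), without replicate 1 at 72 h (0.123), in a fit of the compared time points only (0.0881) and with no filter on low values (0.0584), in a range of 0.0105 to 0.123. The level of WNT5B relative to WNT5A was 0.139 and 0.0873 (34 h), 4.03 and 2.42 (42 h), 4.91 and 2.74 (50 h) and 3.46 and 3.04 (72 h). So WNT5A was the higher of the pair in both 34 h libraries and WNT5B in all 6 later ones.

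**Figure D4:**
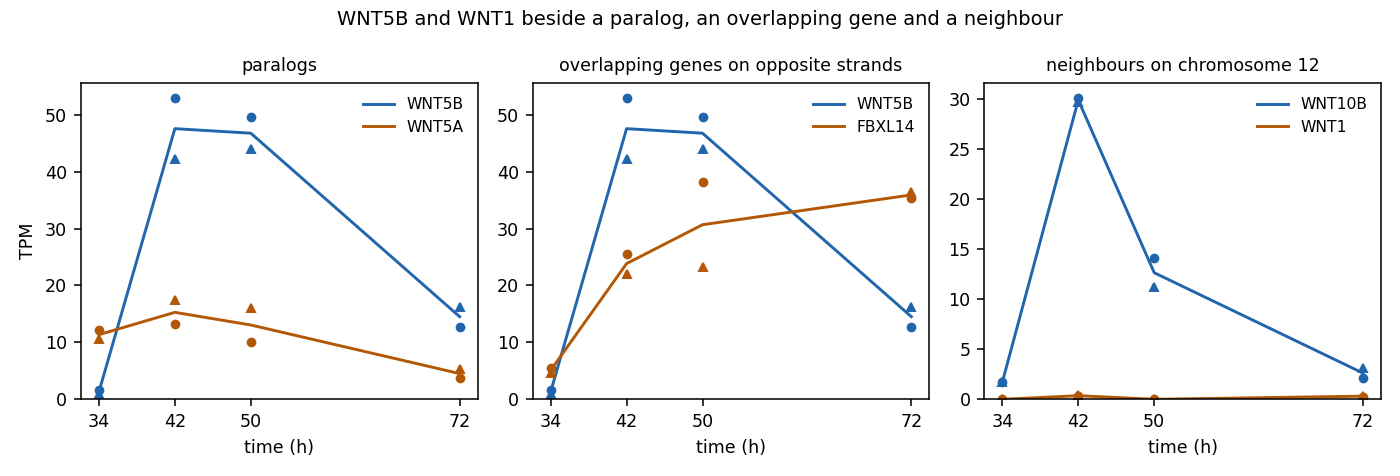
TPM against hours for WNT5B beside its paralog WNT5A, and for WNT5B beside FBXL14, which it overlaps on the opposite strand in GENCODE 29. The last panel has WNT10B beside its neighbour WNT1. Circles and triangles are replicates 1 and 2 and lines their means. WNT5B passes WNT5A between 34 h and 42 h, FBXL14 stays high at 72 h where WNT5B is lower, and WNT10B reaches 30.1 and 29.7 TPM at 42 h where WNT1 stays under 0.5 TPM.

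WNT8A rose late and was the most abundant ligand transcript at 72 h. Its orthologs are known as posteriorising signals of the gastrula in fish and frogs. It lies on chromosome 5 at 138083892 to 138092365, plus strand. WNT8A had 0.402 and 0.454 TPM (34 h), 2.12 and 1.26 TPM (42 h), 11.2 and 7.63 TPM (50 h) and 49.4 and 45.8 TPM (72 h). Each time point lay above the one before it without overlap. At 42 h the difference from 34 h was 0.89 ± 0.23 (limma adjusted p 0.104), and with a pseudocount of 0.1 it was 1.72 and past the threshold (0.0223, in a range of 0.0223 to 0.338). WNT8A rose by 2.85 ± 0.23 at 50 h (limma adjusted p 0.000305) and by 5.09 ± 0.23 at 72 h (limma adjusted p 6.38e-06) against 34 h, with 5.17 and 5.01 within the replicates at 72 h. The step from 42 h to 50 h was 1.95 ± 0.23 with a limma adjusted p of 0.0357. This call ended when any library was left out (0.0675 to 0.275), in a fit of the compared time points only (0.279), without the filter (0.105) and with Ensembl rows apart (0.0502), and the lowest value over the alternatives was 0.0191. Between 50 h and 72 h WNT8A rose by a further 2.24 ± 0.23 (limma adjusted p 0.00113), which was kept under each of them. Its paralog WNT8B, known from the developing forebrain, had at most 0.271 TPM, in replicate 1 at 42 h, and was listed at 0 in 1 library at 50 h and 1 at 72 h.

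WNT3, which is required to form the primitive streak in the mouse, was, of the 7 tested ligand genes, the other with its highest level at 72 h. It was given in 3 Ensembl rows that were summed, and 1 of them lies on the primary assembly, on chromosome 17 at 46762506 to 46833154, minus strand; the other 2 identifiers were not matched in GENCODE 29. The sums were 0.0991 and 0.250 TPM (34 h), 1.08 and 1.52 TPM (42 h), 1.39 and 1.43 TPM (50 h) and 4.42 and 4.83 TPM (72 h). The 42 h and 50 h libraries overlapped, above 34 h and below 72 h. Reads of near-identical copies can be split between rows. The row on the primary assembly had at most 0.177 TPM in every library from 34 h to 50 h and 1.28 and 0.980 TPM at 72 h. The sums at 42 h and 50 h were mainly in unmatched rows, of which 1 had 0.851 and 0.686 TPM (42 h), 1.39 and 1.25 TPM (50 h) and 2.24 and 1.65 TPM (72 h). The other unmatched row had 0.229 and 0.775 TPM (42 h), a listed 0 in both 50 h libraries, and 0.890 and 2.20 TPM (72 h). With Ensembl rows apart, the first of the unmatched rows alone passed the filter. WNT3 rose by 2.26 ± 0.23 at 72 h against 34 h, or 2.30 and 2.22 within the replicates, with a limma adjusted p of 0.000323, under each alternative in which it was tested. At 42 h the difference was 0.97 ± 0.23 (limma adjusted p 0.0810); it passed with a pseudocount of 0.1 (0.0339) and with a variance without a mean trend (0.0204), in a range of 0.0204 to 0.355. The rise of 1.04 ± 0.23 at 50 h (limma adjusted p 0.0347) ended when a 34 h, 50 h or 72 h library was left out (0.0735 to 0.156) and in a fit of the compared time points only (0.0994), in a range of 0.00882 to 0.156. Between 50 h and 72 h WNT3 rose by 1.22 ± 0.23 (limma adjusted p 0.0167), a call that ended when a 50 h or 72 h library was left out (0.0666 to 0.113), with a pseudocount of 0.1 (0.0661) and with Ensembl rows apart (0.483), in a range of 0.00591 to 0.483.

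WNT4 and WNT7B fell after 34 h. WNT4, known for its part in kidney and female gonad development, lies on chromosome 1 at 22117305 to 22143969, minus strand. It had 17.1 and 20.4 TPM (34 h), 7.74 and 9.38 TPM (42 h), 5.54 and 7.22 TPM (50 h) and 6.11 and 7.92 TPM (72 h). Both 34 h libraries were above all later ones, and among the later times the 72 h libraries overlapped those of 42 h and of 50 h. WNT4 fell by 1.42 ± 0.20 at 50 h and by 1.30 ± 0.20 at 72 h, with limma adjusted p-values of 0.00426 and 0.00241, both kept under the alternatives. Its fall of 1.05 ± 0.20 at 42 h (limma adjusted p 0.0314) was -1.05 and -1.04 in replicates 1 and 2. The call ended when a 34 h or 42 h library was left out (0.0982 to 0.220), in a fit of the compared time points only (0.0819) and with no filter on low values (0.0952), in a range of 0.0103 to 0.220.

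WNT7B, a ligand known in lung and in the vessels of the brain, lies on chromosome 22 at 45920362 to 45977129, minus strand. It had 5.33 and 3.30 TPM (34 h), 1.82 and 1.25 TPM (42 h), 0.832 and 0.707 TPM (50 h) and 0.182 and 0.0228 TPM (72 h). Each time point lay below the one before it without overlap. At 42 h the difference was -1.05 ± 0.28 (limma adjusted p 0.114). WNT7B fell by 2.25 ± 0.28 at 72 h against 34 h (limma adjusted p 0.000892), under each alternative in which it was tested. Its fall of 1.56 ± 0.28 at 50 h (limma adjusted p 0.0141) was lost without replicate 1 at 34 h (0.112), without replicate 1 or 2 at 50 h (0.0626 and 0.0652), in a fit of the compared time points only (0.0537) and with a pseudocount of 0.1 (0.0546), in a range of 0.00942 to 0.112.

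WNT11, a ligand of cell movement in gastrulation, passed the filter with 2 libraries of different times, and its replicates were far apart at 42 h. It had 0.184 and 0.154 TPM (34 h), 3.51 and 0.980 TPM (42 h), 0.667 and 1.20 TPM (50 h) and 0.406 and 0.155 TPM (72 h). The 42 h and 50 h libraries overlapped and lay above those of 34 h and 72 h. The difference at 42 h against 34 h was 1.35 ± 0.40 (limma adjusted p 0.159), or 1.93 in replicate 1 and 0.78 in replicate 2, and no comparison of WNT11 passed the threshold. WNT1, the ligand of the midbrain and isthmus, was listed at 0 in the 34 h and 50 h libraries and had 0.343 and 0.382 TPM (42 h) and 0.264 and 0.369 TPM (72 h). WNT3A, the transcript of the added protein's gene, had 0.0548 and 0.0687 TPM (34 h), 0.160 and 0.0254 TPM (42 h), a listed 0 in both 50 h libraries, and 0.242 and 0.0307 TPM (72 h). The endogenous WNT3A transcript thus stayed near the bottom of the range at each time. Since the depth is unknown, a listed 0 sets no upper limit.

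The promoter windows of these genes, 250 bases before to 50 after the start in RefSeq (GRCh38.p14), were searched on both strands for the letters CTTTGAT and CTTTGTT, known as TCF and LEF sites. Windows were found for 8 of the 10 genes, WNT5A and WNT5B with 2 each. Of the 10 windows 1 held a match, where 7.61% of 35116 promoter windows of the same length did, and 5.14% of the 15826 windows of tested genes. The windows of the 3 genes that were raised at 72 h against 34 h are shown, with matches in capitals, the first of the WNT5B windows at chr12:1616806-1617105 (plus strand), WNT8A at chr5:138083783-138084082 (plus strand) and WNT3 at chr17:46818643-46818942 (minus strand).
WNT5B: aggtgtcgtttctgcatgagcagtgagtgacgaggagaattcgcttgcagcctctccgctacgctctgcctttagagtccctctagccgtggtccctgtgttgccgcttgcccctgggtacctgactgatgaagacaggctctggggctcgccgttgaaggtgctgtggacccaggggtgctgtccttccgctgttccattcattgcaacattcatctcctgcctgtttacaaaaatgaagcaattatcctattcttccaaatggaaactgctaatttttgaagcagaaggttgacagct
WNT8A: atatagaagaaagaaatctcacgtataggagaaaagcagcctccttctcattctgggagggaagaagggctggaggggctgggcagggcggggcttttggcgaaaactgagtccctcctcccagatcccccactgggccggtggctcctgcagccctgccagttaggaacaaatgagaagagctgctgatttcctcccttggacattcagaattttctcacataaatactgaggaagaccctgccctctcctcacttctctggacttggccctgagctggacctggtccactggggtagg
WNT3: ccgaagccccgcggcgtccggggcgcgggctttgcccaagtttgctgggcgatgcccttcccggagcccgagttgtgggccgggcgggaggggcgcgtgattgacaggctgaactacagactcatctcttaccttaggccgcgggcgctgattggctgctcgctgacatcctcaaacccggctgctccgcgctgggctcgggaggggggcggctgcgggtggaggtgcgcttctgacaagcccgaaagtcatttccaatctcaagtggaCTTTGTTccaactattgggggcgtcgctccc
The match in WNT3 begins 19 bases after the start. The WNT5B and WNT8A windows shown hold neither run of letters and have GC contents of 51.7% and 54.7%, against 65.7% in WNT3 and 85.7% in WNT4. The median was 58.7% over the 35116 windows and 65.0% over those of tested genes. A match here is a run of letters and no measured site, and these windows say nothing on starts elsewhere in the genes.

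The other 9 WNT ligand genes were read in the same way. WNT10B, WNT2B and WNT9A passed the filter. WNT10B, a beta-catenin ligand known in bone and fat, had 1.74 and 1.68 TPM (34 h), 30.1 and 29.7 TPM (42 h), 14.1 and 11.2 TPM (50 h) and 2.13 and 3.10 TPM (72 h). It rose by 3.51 ± 0.19 at 42 h (limma adjusted p 9.16e-05) and fell by 1.92 ± 0.19 from 50 h to 72 h (limma adjusted p 0.000954), under each alternative. With WNT10B at 24.7% and 26.8% of the 19 genes' TPM at 42 h, the sum over all 19 genes was highest there. That sum was 42.8 ± 1.18 TPM at 34 h, 116 ± 7.75 at 42 h, 101 ± 5.38 at 50 h and 86.6 ± 3.71 at 72 h (SD, n = 2), so the even level of the 10 genes after 42 h did not hold for the whole family. WNT10B and WNT1 lie 6.7 kb apart on chromosome 12 with 0 protein-coding genes between them, and WNT1 stayed under 0.5 TPM. WNT2B went from 2.91 and 2.58 TPM at 34 h to 8.08 and 5.72 TPM at 50 h and returned to 2.55 and 2.98 TPM at 72 h. Its rise of 1.06 ± 0.21 at 50 h (limma adjusted p 0.0224) was lost in a fit of the compared time points only (0.0909), with no filter on low values (0.0636), without either 34 h library (0.0865 and 0.133) and without replicate 1 at 50 h (0.126), in a range of 0.0192 to 0.133. WNT9A had between 1.21 and 1.87 TPM in all libraries, with no call in any of the comparisons, and WNT2 was listed at 0 in all 8. WNT6, WNT7A, WNT9B, WNT10A and WNT16 had at most 1.06 TPM, reached by WNT6 in replicate 1 at 50 h.

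Genes for the lipid modification, release and extracellular handling of WNT ligands were set beside the ligands. Of 16 genes 15 were tested, and at 42 h 2 had risen (WLS and TRABD2A) and 1 had fallen (GPC4) from 34 h, where 1.78% of all tested genes were raised and 0.792% lowered, with a median log2 change of 0.01 over the 15 and 0.01 over all tested genes. WLS, the carrier that takes lipid-bearing WNT proteins to the cell surface, had 3.41 and 2.17 TPM (34 h), 50.8 and 38.6 TPM (42 h), 130 and 102 TPM (50 h) and 113 and 139 TPM (72 h). The 50 h and 72 h libraries of WLS overlapped, above those of 42 h and far above those of 34 h. It rose by 3.60 ± 0.21 at 42 h and by 5.08 ± 0.21 at 72 h (limma adjusted p 0.000168 and 5.12e-06), under each alternative. TRABD2A, a protease that inactivates WNT ligands, was the other raised gene, with 4.96 and 6.17 TPM in the 34 h libraries and 12.5 and 12.9 TPM at 42 h (1.06 ± 0.15, limma adjusted p 0.00807); that call ended without replicate 1 at 34 h (0.0624), without either 42 h library (0.0573 and 0.0679) and in a fit of the compared time points only (0.0781), in a range of 0.00593 to 0.0781. GPC4, a glypican of the cell surface, fell from 170 and 165 TPM at 34 h to 84.7 and 92.6 TPM (42 h) and 30.7 and 33.2 TPM (72 h), by 2.35 ± 0.10 (limma adjusted p 5.94e-06) at 72 h. At 72 h against 34 h the list had 2 raised and 3 lowered genes (GPC3, GPC4 and TMED2), where 24% of all tested genes were called; TMED2 lost its call without replicate 1 at 34 h (0.0817) or replicate 2 at 72 h (0.104). Of the raised, TRABD2A (limma adjusted p 0.0435) lost its call in 13 of 17 alternatives, among them leaving out any 1 of the 8 libraries (0.0554 to 0.198), in a range of 0.0341 to 0.198. PORCN, the enzyme that adds the lipid, had at most 13.7 TPM, in replicate 2 at 42 h, and at least 7.44 TPM, in replicate 2 at 50 h, and was not called.

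All 16 genes of the receptor list were tested, and against 34 h there were 4 raised and 2 lowered (42 h), 6 raised and 2 lowered (50 h), and 7 raised and 1 lowered (72 h). Of all tested genes 2.58%, 6.26% and 24% were called in these comparisons. FZD1 and FZD10, under 1 TPM in both 34 h libraries, passed the filter through later libraries, so the filter favours their rise and these counts and the median of the list do not support a direction. At 42 h PTK7 (0.72 ± 0.13, limma adjusted p 0.0259) lost its call in 8 of 17 alternatives, among them leaving out replicate 2 at 34 h or either library at 42 h or 72 h (0.0517 to 0.167), in a range of 0.0164 to 0.167, and FZD1 lost it in a fit of the compared time points only (0.0520). FZD8, which was lowered, lost its call in 6 of 17 at 42 h and 6 of 17 at 50 h, among them leaving out any library of the compared times, in ranges of 0.0110 to 0.114 and 0.0165 to 0.137. FZD3 lost its call at 72 h without replicate 1 at 34 h (0.0579) or at 72 h (0.0781). The list's median log2 change was 0.30, 0.34 and 0.42 at those times, where it was 0.01, 0.04 and 0.06 over all tested genes. ROR2, a receptor for WNT5A, had 5.33 and 4.09 TPM (34 h), 32.7 and 29.2 TPM (42 h), 56.2 and 37.1 TPM (50 h) and 85.5 and 87.6 TPM (72 h). It rose by 2.49 ± 0.20 at 42 h and by 3.95 ± 0.20 at 72 h (limma adjusted p 0.000489 and 9.05e-06), under each alternative. Its relative ROR1 had between 49.1 and 82.3 TPM over the libraries and rose by 0.58 ± 0.11 at 50 h (limma adjusted p 0.0223), a call that ended without replicate 2 at 34 h (0.140), without replicate 1 or 2 at 50 h (0.0763 and 0.0895), in a fit of the compared time points only (0.104) and without a variance trend (0.0549), in a range of 0.0168 to 0.140. FZD10 had a rise, which the filter favours, from 0.265 and 0.104 TPM at 34 h to 5.85 and 3.98 TPM after 8 h of WNT3A, by 2.31 ± 0.22 (limma adjusted p 0.00136), and FZD5 fell from 20.5 and 19.4 TPM to 8.28 and 8.27 TPM, by 1.18 ± 0.14 (limma adjusted p 0.00352). FZD7 had the most TPM among the Frizzled genes, between 363 and 406 in all libraries, and was not called in any comparison. The ligands thus changed beside receptors that changed in both directions and others that were not called.

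Genes whose levels over the 8 libraries were most like those of the called ligand genes were sought by Pearson correlation of log2(TPM + 1) among 11540 genes, or 11539 where the ligand gene was itself among them, with a mean of at least 5 TPM at their highest time. WNT5B was most like GAD1 (r = 0.992), MYCL (0.989) and EGFLAM (0.985). GAD1, an enzyme that makes the transmitter GABA, went from 1.49 and 0.083 TPM at 34 h to 48.0 and 43.5 TPM at 42 h and was at 11.9 and 21.2 TPM at 72 h. WNT8A was most like KANSL3 (0.998), C14orf132 (0.993) and IRX2 (0.993). These had a similar course but a far smaller span: KANSL3 was at 23.0 TPM in both 34 h libraries and at 35.5 TPM in both 72 h libraries. WNT3 was most like NRG1 (0.997), SEMA5A (0.991) and TNFRSF19 (0.988). NRG1, a growth factor of the EGF family, was at 4.82 and 5.50 TPM at 34 h and at 16.9 and 17.7 TPM at 72 h. WNT4 was most like ETS2 (0.986), RAB3A (0.981) and SIK3 (0.972), WNT7B like GALNT9 (0.990), ATP2A3 (0.988) and GRB7 (0.988), and WNT5A like GLB1 (0.987), PPFIBP1 (0.978) and SMOC2 (0.976). The 8 points fall on 4 times and share their libraries, so these values describe a shared course only.

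The cells were checked against markers of their labelled state and of others. The 7 pluripotent cell markers summed to between 3439 and 3461 TPM at 34 h and between 1887 and 1978 TPM at 72 h, and the 7 neural progenitor markers to between 188 and 192 TPM and between 409 and 459 TPM. At 72 h against 34 h POU5F1, TDGF1 and DPPA4 of the pluripotent list were lowered. LIN28A, with means of 902 and 1024 TPM at 34 h and 72 h, and PRDM14, with 22.1 and 26.6 TPM, were not called in that comparison, and PRDM14 rose by 1.24 ± 0.16 from 50 h to 72 h (limma adjusted p 0.00380). SOX2, which neural progenitors also express, rose by 0.64 ± 0.08 (limma adjusted p 0.00117). Of the neural progenitor markers 5 of 7 had at least 1 TPM in both libraries from 34 h to 50 h. At 72 h against 34 h, 5 of the 6 tested were raised (CDH2, NES, PAX6, SOX1 and ZNF521) and 0 lowered. The mean of SOX1 went from 1.89 TPM to 50.8 TPM, by 4.16 ± 0.19 (limma adjusted p 6.53e-06). PAX6, at 0.0270 and 0.281 TPM in the 34 h libraries, reached 4.01 and 3.59 TPM by 72 h. PAX6 passed the filter through the 72 h libraries alone, which favours its call. SOX3 was not called, and HES5 was listed at 0 in both 72 h libraries. NANOG, a pluripotent cell marker, had 0.380 and 0.983 TPM at 72 h. Mesoderm and endoderm markers, whose cells also express WNT3, WNT5B and WNT8A in the embryo, summed over 11 genes to between 13.1 and 14.5 TPM (34 h), 12.5 and 12.7 TPM (42 h), 9.27 and 9.29 TPM (50 h) and 2.13 and 2.56 TPM (72 h). FOXA2, an endoderm and floor plate factor, held most of these sums up to 50 h, and went from 11.9 and 13.4 TPM (34 h) to 0.575 and 0.866 TPM (72 h). MIXL1, a primitive streak factor, had 0.115 and 0.108 TPM (34 h), 1.66 and 1.32 TPM (42 h), 1.47 and 1.81 TPM (50 h) and 0.333 and 0.290 TPM (72 h), highest at the times when WNT5B was. Its rise of 1.25 ± 0.25 at 50 h (limma adjusted p 0.0232) ended when a 34 h or 50 h library was left out (0.0780 to 0.121) and in a fit of the compared time points only (0.0646), in a range of 0.00314 to 0.121. MIXL1 passed the filter through the 42 h and 50 h libraries alone, which favours that call. HAND1, a mesoderm and amnion factor, was listed at 0 at 34 h and 72 h and had 0.833 and 0.778 TPM at 42 h. At 42 h 3 of the 11 had at least 1 TPM in both libraries, and MSGN1 and SOX17 were listed at 0 in all 8 libraries. EOMES, a marker of the primitive streak, had 0.0551 and 0.104 TPM (34 h), 1.33 and 1.21 TPM (42 h) and a listed 0 in both libraries at 72 h, when WNT8A and WNT3 were highest. The 6 neural crest markers summed to between 4.72 and 8.39 TPM from 34 h to 50 h and to between 12.4 and 14.1 TPM at 72 h, where WNT8A and WNT3 were also highest. PAX3 had 4.81 and 4.24 TPM and SNAI2 6.99 and 5.19 TPM there, both under 0.4 TPM at 34 h and so past the filter through later libraries. The other markers did not rise with them. FOXD3 was called lowered, from 4.65 and 4.48 TPM at 34 h to a listed 0 in both 72 h libraries. SOX10 had means of 2.66 TPM at 34 h and 2.59 TPM at 72 h. PAX7 and TFAP2B had means of 0.0432 and 0.0078 TPM at 72 h. The 6 amnion and trophoblast markers summed to between 36.9 and 42.9 TPM at 34 h and, where WNT7B and WNT4 were also lower, to between 6.11 and 8.69 TPM at 72 h. KRT7 held 35.0 and 40.6 TPM of the 34 h sums and fell by 2.44 ± 0.19 at 72 h (limma adjusted p 7.99e-05), with GATA3 listed at 0 in both libraries from 42 h on. The part of such cells in the ligand levels was not tested. Over the whole series between 13860 and 14004 genes had at least 1 TPM in a library, and 8.70% to 11.2% of a library's TPM was mitochondrial.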

How the data were processed

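Poly(A) RNA libraries of 8 samples were read as paired ends of 150 bases, per the labels' protocols. The deposited table gives TPM per Ensembl gene and library; Salmon 1.9.0 and GRCh38 are named in the submitters' processing notes, and the annotation and filters are not given in the sources used here. Each column sums to 1000000. TPM keeps no depth, so the depth is unknown and no counting interval was computed. The 37951 rows were summed by symbol. The 14908 genes at 1 TPM or more in 2 or more libraries were fitted as log2(TPM + 1) with 1 mean per time point over all 8 libraries by limma 3.58.1 in R 4.3.3, with a variance trend and two-sided Benjamini-Hochberg adjustment over all tested genes. An exact permutation test of 2 against 2 libraries cannot pass 0.05, so none was used. Replicates are separate samples per the labels. The p-values set a difference between times against the spread between replicates, pooled over all 8 libraries and moderated across genes. The procedure was tested on simulated data.

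The batch label makes the replicate number a pairing; differences between replicates 1 and 2 correlated across genes at 0.0949 to 0.195 among 34, 42 and 50 h and at -0.104 to -0.0445 between 72 h and the others. The member genes and lists were chosen with earlier results of these data known. Named genes are the members, the listed genes and the 3 genes most like each called member; FBXL14 was added after its values were seen. Alternatives were a pseudocount of 0.1, no filter, a mean of at least 5 TPM, TMM rescaling (trims of 0.3 and 0.05, unweighted), quantile normalization, no variance trend, the compared time points alone, a replicate block, Ensembl rows apart and leaving out each library. Positions are from GENCODE 29 and promoter windows from RefSeq. A planned comparison of the proteins was not made.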

Additional observations from a re-analysis of the deposited data

How the results depend on the processing

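Of the 18 called changes of single WNT ligand genes, 11 were kept in direction and call under every alternative in which the gene was tested; the other 7, of WNT3, WNT4, WNT5A, WNT7B and WNT8A, are given with the settings that ended them beside their values, and 0 of the 18 changed direction. With WNT3, WNT7B and WNT11 below a mean of 5 TPM, and WNT11 below the filter without replicate 1 at 42 h or replicate 2 at 50 h, these settings gave no value for them. The cause of the lost calls was not tested. A fit with fewer libraries or time points was not separated from the effect of the values left out.

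The count of called WNT ligand genes at 42 h against 34 h, 2, was 1 with the compared time points alone or with no filter on low values, 4 with a pseudocount of 0.1, and 1 to 2 when single libraries were left out. At 50 h against 34 h, 5 became 3 in a fit of the compared time points only or of genes with a mean of 5 TPM or more, and 3 to 5 when single libraries were left out; at 72 h against 34 h, 6 became 5 to 6 on leaving out libraries, 4 of 4 tested with a mean of 5 TPM or more, and 7 with no filter, where WNT1 was tested and called raised (log2 difference 0.40, limma adjusted p 0.0180). Between 42 h and 50 h the 1 call became 0 by limma with the compared time points alone, with no filter, with Ensembl rows apart (1, 2 and 1 genes at an unadjusted p under 0.05) and on leaving out any library (0 to 0). Between 50 h and 72 h leaving out libraries gave 2 to 4, and with no filter WNT1 was called raised (limma adjusted p 0.0437).

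Over all tested genes, calls were 384 at 42 h against 34 h (171 with the compared time points alone, 160 to 385 on leaving out libraries), 933 at 50 h (431, and 412 to 809) and 3578 at 72 h (1840 to 3661), and 1093 between 50 h and 72 h (367, and 319 to 929). Between 42 h and 50 h the 14 calls became 0 with the compared time points alone (1089 at an unadjusted p under 0.05), 4 with Ensembl rows apart, 24 with a mean of at least 5 TPM, 8 with no filter, 27 without a variance trend and 1 to 8 on leaving out libraries. With the replicate block they became 7, and the block changed no call of a WNT ligand gene.

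Among the 17 changes that were not called, leaving out libraries moved the log2 difference across 0 for WNT11 at 72 h against 34 h (-0.017 to 0.27), WNT3 between 42 h and 50 h (-0.065 to 0.21), WNT4 between 50 h and 72 h (-0.044 to 0.28), WNT5A at 50 h against 34 h (-0.15 to 0.46) and against 42 h (-0.54 to 0.076), and WNT5B between 42 h and 50 h (-0.18 to 0.14). Summing all 19 ligand genes in place of 10 gave 42.8, 116, 101 and 86.6 TPM at the 4 times. Low TPM values, as in WNT1, WNT3A, WNT8B and WNT11, cannot be given a counting error here.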

Other observations

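Genes of the isthmus and roof plate, the regions where WNT1 is expressed in the embryo, included 3 raised genes at 72 h against 34 h, of 6 tested among 11, while WNT1 stayed under 0.5 TPM. Over all tested genes 12.7% were raised, but the 3 (MSX1, MSX2 and PAX2) were under 0.3 TPM at 34 h and passed the filter only through later libraries, so the filter favours their rise and the count is no support for the list. MSX1, a roof plate factor, was listed at 0 at 34 h in either library and then had 1.98 and 2.12 TPM (42 h), 3.74 and 3.61 TPM (50 h) and a mean of 1.76 ± 0.198 TPM (72 h; SD, n = 2). PAX2, an isthmus factor, had 0 and 0.0664 TPM (34 h) and 2.85 and 3.59 TPM (72 h), with a log2 difference of 2.03 ± 0.49 and a limma adjusted p of 0.0209; this call ended when a 34 h or 72 h library was left out (0.0733 to 0.102) or with no filter (0.0580), in a range of 0.00339 to 0.102. EN1 had at most 0.515 TPM, in replicate 1 at 42 h, and EN2 was listed at 0 in both libraries at 34, 50 and 72 h.

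The core genes of planar cell polarity, the process that WNT5A, WNT5B and WNT11 are known to act on, had 0 of 11 calls by limma against 34 h both at 42 h and at 50 h, where 2.58% and 6.26% of all tested genes were called, so that 0 of 11 is near the background; 1 and 2 genes had an unadjusted p under 0.05. At 72 h, where 24% of all tested genes were called, 2 of the 11 were raised, CELSR1 and CELSR2, and 1 lowered, PRICKLE1 (limma adjusted p 0.0360), whose call ended in 8 of 17 alternatives, among them leaving out any 34 h, 42 h or 72 h library (0.0538 to 0.185), in a range of 0.0204 to 0.185. CELSR1, a large cadherin, rose from 12.5 and 8.83 TPM to 30.3 and 27.2 TPM at 72 h (1.36 ± 0.20, limma adjusted p 0.00239).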
